A study of Mus musculus with 19 samples.

Results

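A set of 10 genes of the bone morphogenetic protein (BMP) pathway were followed in single cells of the early mouse thymic primordium. They were chosen by name from the deposited table of read counts and make up 10 of its 21964 protein-coding genes. Bmp4, Bmp2 and Bmp7 encode secreted ligands, Bmpr1a a type I receptor, Smad6 an inhibitory SMAD, Id1, Id2 and Id3 dominant-negative helix-loop-helix factors, and Msx1 and Msx2 homeobox transcription factors. All libraries came from wild type mice, and individual EPCAM+PLET1+ epithelial cells were sorted from primordia at E10.5 or E12.5 into 96-well plates, with 4 plates analysed per stage. Their letters are a to d for E10.5, while the E12.5 plates carry a, c, d and e. No treatment or allele distinguishes the stages. After the limits on reads, features and mitochondrial share, 356 cells at E10.5 and 355 cells at E12.5 remained.

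BMP ligands are bound by complexes of type I and type II receptors, which phosphorylate SMAD1, SMAD5 and SMAD9. These enter the nucleus with SMAD4 and activate genes such as the Id and Msx families, and Smad6 limits the signal from inside the cell. In the third pharyngeal pouch, from which thymus and parathyroid both arise, Bmp4 is known from the domain that forms the thymus. The sorted cells can hold more than thymic epithelium, so E12.5 cells were split by Chga, a secretory granule gene of the parathyroid, at 2000 CPM (reads of a gene scaled to 1e6 protein-coding reads of the cell), and E10.5 cells by Tubb3, a neuronal tubulin, at 100 CPM. The 42 Chga-high cells had Gcm2, the parathyroid regulator, at 252.2 CPM and Pth at 11530 CPM, against 0.767 and 11.3 CPM in the 313 Chga-low cells, which in turn held Foxn1, the regulator of thymic epithelium, at 239.4 against 1.38 CPM (means of 4 plates). No cell lay between 1000 and 4000 CPM of Chga, whereas 14 E10.5 cells lay between 50 and 200 CPM of Tubb3. There were 64 Tubb3-high and 292 Tubb3-low cells at E10.5, and the Tubb3-low cells held Epcam at 513.5 and Plet1 at 376.3 CPM against 149.4 and 28.4 CPM.

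Promoter sequences from RefSeq (GRCm38.p6) were at hand for 7 of the 10 genes, with none for Id1, Bmp2 and Bmp7. Those of the ligand Bmp4, the response gene Msx1, and the inhibitor Smad6 are shown, since the ligand and response genes were compared cell by cell. Each is the 250 bases before the start, 5′ to 3′ on the strand of the gene, and capitals mark the SMAD-box letters GTCT or AGAC and the letters GGCGCC, searched on both strands, whose letters cannot overlap each other. The windows are chr14:46390670-46390919 (minus strand) for Bmp4, chr5:37824586-37824835 (minus strand) for Msx1, and chr9:64022060-64022309 (minus strand) for Smad6.
Bmp4: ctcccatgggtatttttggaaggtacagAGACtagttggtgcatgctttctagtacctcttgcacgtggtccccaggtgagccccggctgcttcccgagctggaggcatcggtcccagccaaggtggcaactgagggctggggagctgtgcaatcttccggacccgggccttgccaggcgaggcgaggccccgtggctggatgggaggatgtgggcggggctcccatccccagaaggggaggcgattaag
Msx1: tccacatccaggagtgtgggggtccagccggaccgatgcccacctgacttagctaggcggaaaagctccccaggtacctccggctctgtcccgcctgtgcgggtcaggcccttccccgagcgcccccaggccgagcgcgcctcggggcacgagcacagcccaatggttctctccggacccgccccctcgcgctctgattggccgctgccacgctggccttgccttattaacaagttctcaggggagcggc
Smad6: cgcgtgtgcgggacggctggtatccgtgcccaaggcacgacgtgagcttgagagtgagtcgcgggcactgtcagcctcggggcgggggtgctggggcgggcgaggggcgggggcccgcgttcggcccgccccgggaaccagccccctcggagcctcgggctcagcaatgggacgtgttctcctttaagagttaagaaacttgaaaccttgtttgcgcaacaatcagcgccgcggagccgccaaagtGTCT
Bmp4 and Smad6 each held 1 match to GTCT or AGAC, and Msx1 held neither motif. Of 18576 promoter windows of the same length, 81.4% held GTCT or AGAC and 13.1% held GGCGCC. The windows of Id2, Id3, Msx2 and Bmpr1a overlap an annotated exon and are not printed. Among them, Id2 held 1 match to each motif, Id3 held 2 matches to GTCT or AGAC, Msx2 held 1, and Bmpr1a held 1 GGCGCC.

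In the annotation of GRCm38 the ligand genes are Bmp4 on chromosome 14 (46383520 to 46390669), Bmp2 on chromosome 2 (133552159 to 133562885) and Bmp7 on chromosome 2 (172868012 to 172940321). Bmpr1a lies on chromosome 14 (34410734 to 34503341) and Smad6 on chromosome 9 (63953076 to 64022059). Id1 lies on chromosome 2 (152736251 to 152737410), Id2 on chromosome 12 (25093799 to 25097140), Id3 on chromosome 4 (136143497 to 136145755), Msx1 on chromosome 5 (37820485 to 37824583) and Msx2 on chromosome 13 (53466884 to 53473074). Bmp4 overlaps Gm15217 and Gm15222 on the opposite strand, and Bmpr1a overlaps the antisense gene Gm17110. Whether strand was used in counting is not given in the sources used here, so reads of these pairs cannot be told apart.

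Between 14981265 and 20106286 reads fell on genes in each plate. One library stood apart: plate a at E10.5 had a median of 1480.5 genes per cell, against 2570 to 3260 on the other E10.5 plates, and 125116 molecules of protein-coding genes in its first run, against 426604 to 460261. At E12.5 the plates had 174631 to 467695 molecules in the first run and medians of 1817.5 to 3130 genes per cell. Both runs of a plate read the same library, and of genes with 1 molecule in a cell in the first run 83.2 to 92.3% had a molecule in that cell in the second run as well, so molecules are given for 1 run and not added. Levels below are CPM of the reads of a plate, all its cells added, with mean ± SD over 4 plates, and levels of different genes are not compared. Shares are cells with at least 1 read after each cell was thinned to 40000 reads, with exact binomial intervals of 95% that cover counting error only. Plates were compared by the quasi-likelihood test of edgeR with the p adjusted over all genes tested, and a gene is called past an adjusted p of 0.05. Some genes had fewer than 2 of the 4 sums of a group at the CPM cutoff of the filter on low counts. They passed that filter wholly or mostly through the other group, below called through 1 group, and it favoured a difference for them. These genes are described without a test and left out of the counts, among all genes too. Nothing in the labels says which plates came from separate litters, so the spread between plates may be technical in part.

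Between the stages, Id2 and Id3 fell and Bmp7 rose, while Bmp4 did not pass the test. Msx2 had no read in any E12.5 cell and Msx1 few, and both are described without a test. Msx1 averaged 26.1 ± 10.2 CPM at E10.5 and 1.66 ± 2.30 CPM at E12.5, Id2 averaged 121.1 ± 22.5 and 43.6 ± 21.2 CPM, Id3 averaged 2059 ± 204 and 1066 ± 158 CPM, and Bmp7 averaged 45.3 ± 13.0 and 138.7 ± 46.0 CPM (SD, n = 4 plates). Of the 10 genes, 9 passed the filter on low counts, Msx1 and Msx2 through E10.5. Of the other 7, 3 were called, 1 higher and 2 lower at E12.5. Of the 10718 genes counted in the same way 4.48% were called, 2.82% higher and 1.66% lower, and of all 11499 that passed the filter 6.24%. The median log2 fold change of the 7 genes was -0.29, against 0.001 over the 10718.

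Bmp4, the ligand best known from the thymus domain, was at 85.7, 40.9, 70.9 and 73.3 CPM on plates a, b, c and d at E10.5. At E12.5 it was at 37.0, 39.0, 74.0 and 74.2 CPM on plates a, c, d and e. The 2 stages overlapped, and the log2 fold change of Bmp4 was -0.29 (SE 0.39, adjusted p = 0.779). A Bmp4 read was found in 31.7% of E10.5 cells (113 of 356, interval 26.9 to 36.9%) and in 22.8% of E12.5 cells (81 of 355, interval 18.6 to 27.5%). Among plates the share ran from 19.3 to 41.3% at E10.5 and from 15.6 to 31.5% at E12.5, so the ranges overlapped. Bmp4 reads were concentrated in few cells, since 20 cells held at least 50% of the 3500 reads at E10.5 and 20 cells at least 50% of the 3623 reads at E12.5.

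Bmp7, a ligand that forms dimers with other BMPs, was at 36.3, 64.5, 38.9 and 41.5 CPM on plates a, b, c and d at E10.5. At E12.5 it was at 141.3, 199.5, 89.3 and 124.6 CPM on plates a, c, d and e. Every E12.5 plate lay above every E10.5 plate, with a log2 fold change of 1.51 (SE 0.32, adjusted p = 0.0169). The share of cells with a Bmp7 read was 19.9% at E10.5 (71 of 356, interval 15.9 to 24.5%) and 40.3% at E12.5 (143 of 355, interval 35.1 to 45.6%). The plates overlapped in share, from 7.96 to 28.2% at E10.5 and from 25.9 to 64.04% at E12.5. Without plate c at E10.5 the adjusted p of Bmp7 was 0.0601, and without plate c at E12.5 it was 0.0512.

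Bmp2, the third ligand, was near absent. Its 85 reads at E10.5 were all on plate c, in 6 cells, and its 120 reads at E12.5 lay in 4 cells, with 61 of them in 1 cell. It did not pass the filter on low counts and was not tested between stages.

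Bmpr1a, a type I receptor for BMP ligands, was at 22.4, 51.5, 38.0 and 14.9 CPM on plates a, b, c and d at E10.5. On plates a, c, d and e of E12.5 Bmpr1a was at 64.3, 60, 27.5 and 12.46 CPM. The plates of both stages overlapped, and the log2 fold change of Bmpr1a was 0.24 (SE 0.52, adjusted p = 0.879). A Bmpr1a read was found in 18.8% of E10.5 cells and 23.7% of E12.5 cells. The shares were 25.6 and 33.5% without thinning and 12.4 and 14.1% by molecules of the first run. Smad6 was low, from 0.830 to 3.94 CPM at E10.5 and from 0.0645 to 4.87 CPM at E12.5, with a read in 4.78% and 3.10% of cells. Without thinning the Smad6 shares were 8.99% and 7.61%. At these read numbers a change in Smad6 could be estimated only loosely (log2 fold change -0.05, SE 1.20, adjusted p = 0.990), and its sign turned when single plates were left out.

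**Figure D1:**
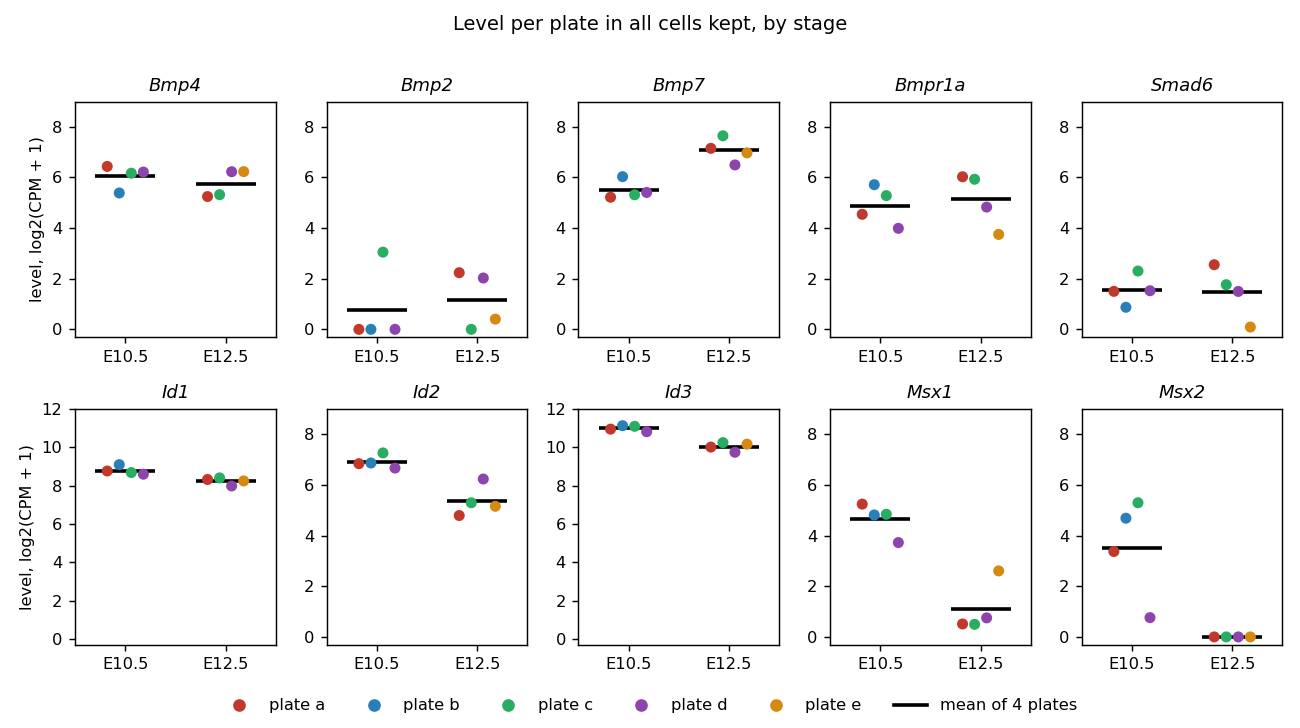
Level of each of the 10 genes per plate as log2(CPM + 1) on the vertical axis, by stage, with 1 point per plate and a bar at the mean of the 4 log values. Msx2 is at 0 on all 4 plates at E12.5, and the Bmp7 points at E12.5, 89.3 to 199.5 CPM, all lie above those at E10.5, 36.3 to 64.5 CPM.

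Id1 is a direct target of BMP SMADs in many cell types. It was at 434.9, 548.1, 411.2 and 387.1 CPM on plates a, b, c and d at E10.5. At E12.5 it was at 319.6, 338.5, 252.6 and 303.0 CPM on plates a, c, d and e. The stages did not overlap, yet the fold change did not pass the test in edgeR (log2 fold change -0.63, SE 0.21, adjusted p = 0.121). DESeq2 gave an adjusted p of 0.0465 for Id1, and in the other alternatives it was not called (adjusted p from 0.0639 to 0.375). An Id1 read was found in 69.9% of cells at E10.5 (249 of 356, interval 64.9 to 74.7%) and 56.3% at E12.5 (200 of 355, interval 51.0 to 61.6%).

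Id2 was at 114.0, 116.1, 153.4 and 101.0 CPM on plates a, b, c and d at E10.5. On plates a, c, d and e of E12.5 Id2 was at 26.8, 38.4, 74.6 and 34.8 CPM. No E12.5 plate reached the E10.5 range, and the log2 fold change of Id2 was -1.52 (SE 0.37, adjusted p = 0.0305). The highest E12.5 value, that of plate d, owed 538 of its 1308 reads to 1 Chga-high cell. An Id2 read was found in 45.2% of E10.5 cells (161 of 356) and 14.1% of E12.5 cells (50 of 355), and the plates did not overlap in share either, from 29.6 to 55.3% against 10 to 17.98%. By molecules of the first run the plates did overlap in share, with 9.09% on plate a at E10.5 and 14.1% on plate d at E12.5.

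Id3 was at 1985, 2249, 2197 and 1806 CPM on plates a, b, c and d at E10.5. At E12.5 it was at 1036, 1218, 858.6 and 1152 CPM on plates a, c, d and e. No plate of one stage reached the other, with a log2 fold change of -1.02 (SE 0.21, adjusted p = 0.0145). The share of cells with an Id3 read was 76.7% at E10.5 (273 of 356) and 61.4% at E12.5 (218 of 355), but it overlapped among plates, from 54.6 to 85.9% against 53.3 to 78.7%.

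Msx1, a homeobox gene used widely as a BMP response gene, was at 37.0, 27.2, 27.8 and 12.3 CPM on plates a, b, c and d at E10.5. On plates a, c, d and e of E12.5 Msx1 was at 0.426, 0.411, 0.684 and 5.10 CPM. All E12.5 plates were lower than all E10.5 plates. Plate e stood out from the other E12.5 plates, and 77 of its 79 Msx1 reads came from 1 cell. Only 1 of the 4 E12.5 plates, plate e, reached the cutoff of 0.691 CPM, so no test is given. A Msx1 read was found in 14.0% of E10.5 cells (50 of 356) and 1.13% of E12.5 cells (4 of 355). The E12.5 share depended on how cells were read, at 5.63% (20 of 355) without thinning and 3.38% (12 of 355) by molecules of the first run, against 17.4% and 12.6% at E10.5.

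Msx2 was at 9.39, 24.8, 38.5 and 0.696 CPM on plates a, b, c and d at E10.5, and at 0 on all 4 E12.5 plates. The E10.5 plates differed widely among themselves, and plate d held only 10 reads. Its molecules at E10.5 numbered 86 in the first run and 41 in the second, and plate c held 52 of them in the first run and 4 in the second. Set against a floor of 3 molecules of the same run over all E12.5 cells, the level was at least 23.7-fold lower at E12.5 by the first run, and at least 13.7-fold without plate c. By the second run it was at least 11.5-fold lower, and at least 5.53-fold without plate b. Reads are amplified copies of these molecules, and a floor of 3 reads gave at least 373-fold, or 243-fold without plate c. A Msx2 read was found in 13.2% of E10.5 cells (47 of 356) and in 0 of 355 E12.5 cells. By the rule of 3 cells over the total, that 0 allows a share of up to 0.845% of cells with a read, and the exact interval reaches 1.03%, which limits cells with a read and not cells that express Msx2.

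**Figure D2:**
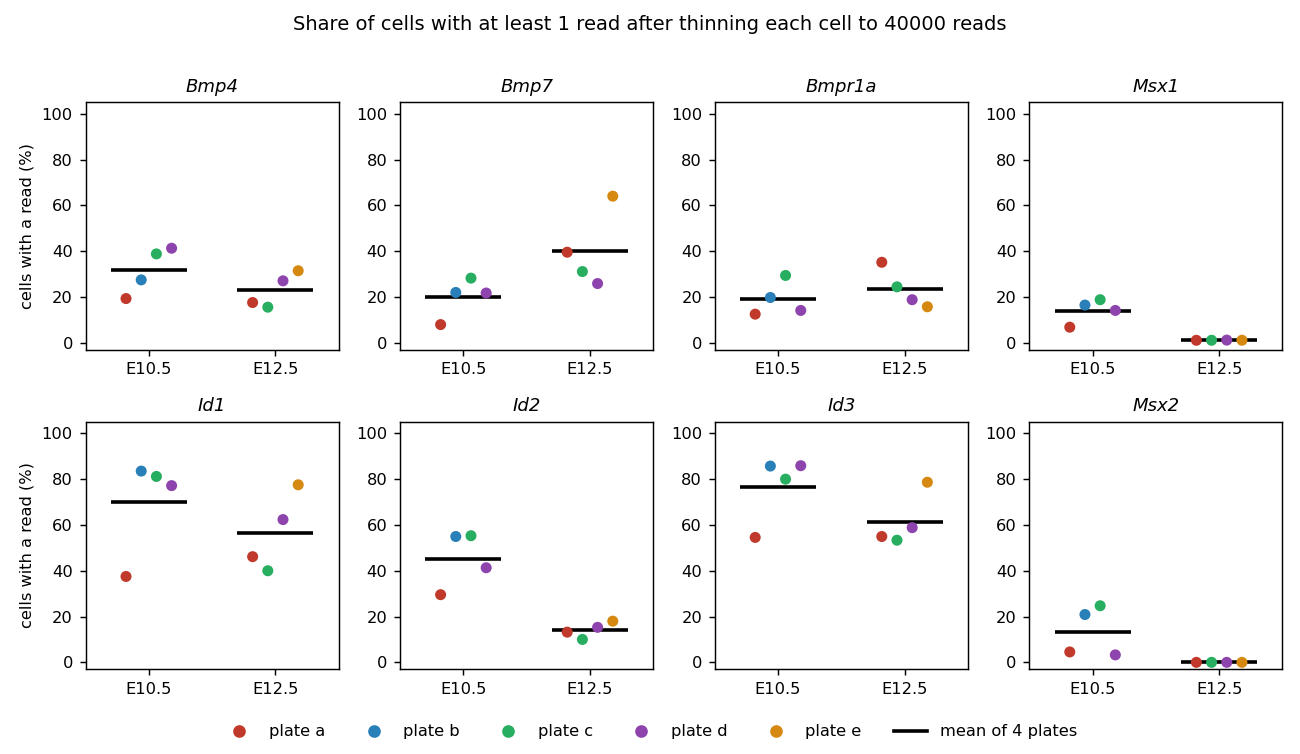
Percentage of cells with at least 1 read of 8 of the genes after thinning every cell to 40000 reads, per plate and stage, with a bar at the mean of 4 plates. Plate a at E10.5 (red) is the lowest E10.5 plate for Id1 at 37.5% and for Id3 at 54.6%, and the shares of Id2 at E12.5, 10 to 17.98%, lie below all of those at E10.5.

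The low number of genes per cell on plate a at E10.5 went with low shares. Its Id1 share was 37.5% against 77.2 to 83.5% on the other E10.5 plates, while its Id1 level of 434.9 CPM lay within their range of 387.1 to 548.1 CPM. Without that plate, 815 of the 11951 genes past the filter were called between stages (6.82%), among them Bmp7, Id2 and Id3. With all plates it was 718 of 11499 (6.24%). These totals keep the genes described without a test, which the counts below leave out. The stage groups did not overlap for Bmp7, Id1, Id2 and Id3, 4 of the 7 genes, against 11.9% of the 10718. Leaving out plates one at a time gave 0 to 3 of these 7 genes as called, against 299 to 545 of the 10718, and none of them was called in each of the 8 fits. Of the calls lost, Id3 went from 0.0145 to at most 0.0594 and Id2 from 0.0305 to at most 0.0959 in adjusted p. Id2 was still called without plate a at E10.5 and without plate d at E12.5, and Id3 was lost without plate b or c at E10.5 or plate d at E12.5.

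When Chga-high cells at E12.5 and Tubb3-high cells at E10.5 were left out, the same 3 genes were called out of 7, again with Msx1 and Msx2 apart. The log2 fold changes were 1.25 for Bmp7 (SE 0.31, adjusted p = 0.0404), -1.81 for Id2 (SE 0.31, adjusted p = 0.00502) and -1.17 for Id3 (SE 0.23, adjusted p = 0.0142). Msx1 averaged 1.79 ± 2.44 CPM in Chga-low and 26.6 ± 8.63 CPM in Tubb3-low cells, and Msx2 had no read in Chga-low cells. Id1 was not called (log2 fold change -0.49, SE 0.22, adjusted p = 0.292). In the Chga-low cells Id2 had a mean of 37.6 ± 9.79 CPM against 131.6 ± 18.8 CPM in Tubb3-low cells of E10.5. Of the 10370 genes counted in the same way 4.03% were called, 2.61% higher and 1.42% lower, and of all 11146 past the filter 5.47%. Without plate a at E10.5 the adjusted p was 0.0622 for Bmp7, which was called in 2 of the 8 fits that left out a plate. Id2 was called in all 8, and Id3 in all but the fit without plate b at E10.5 (adjusted p = 0.0516).

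Reads of mesenchyme markers moved with stage as well. The 7 markers summed to between 67.6 and 128.4 CPM per plate at E10.5, mostly Prrx2, with 6 of 7 detected and Col3a1 at 0, and to between 5.49 and 24.4 CPM at E12.5, with 6 of 7 detected and Prrx1 at 0. Pdgfra and Col3a1 were higher at E12.5, at 3.86 and 0.435 CPM against 1.66 and 0 CPM. Neural crest markers were near 0, with Foxd3 at 0 in both stages, and of the 3 endothelial markers Cdh5 was at 0 in both. Endothelial reads moved with stage too, almost all of them from Kdr, at 13.04 CPM at E10.5 and 0.0494 CPM at E12.5. The 3 summed to between 3.76 and 24.98 CPM per plate at E10.5 and between 0.057 and 0.137 CPM at E12.5. In Tubb3-low E10.5 cells a mesenchyme read was found in 52.6% of 213 cells with an Id1 read and 17.7% of 79 cells without, and in 47.5% of 236 cells with an Id3 read and 25.0% of 56 without. By plate, a mesenchyme read was found in 10 of 29 cells with and 5 of 45 without an Id1 read on plate a, 33 of 64 and 1 of 8 on plate b, 36 of 60 and 3 of 11 on plate c, and 33 of 60 and 5 of 15 on plate d. For Id3 it was found in 9 of 44 cells with and 6 of 30 without on plate a, 33 of 66 and 1 of 6 on plate b, 36 of 59 and 3 of 12 on plate c, and 34 of 67 and 4 of 8 on plate d. The shares for Id3 thus lay close together on plates a and d. The pooled shares mix plates of unequal depth, since plate a gave 45 of the 79 cells without Id1 but 29 of the 213 with it, and 30 of the 56 without Id3 but 44 of the 236 with it. Neuronal markers, with all 8 detected, summed to 691.7 to 1198 CPM per plate in Tubb3-low cells of E10.5 and to 1468 to 1910 CPM in Chga-low cells of E12.5. The higher sum came from Stmn2, at 16.5 and 909.1 CPM, and Nefm, at 581.5 and 665.0 CPM. Tubb3, Nefl, Neurod1, Elavl3, Elavl4 and Isl1 were each lower in the E12.5 cells, with Nefl at 96.5 and 3.13 CPM and Isl1 at 114.4 and 105.2 CPM. In all cells the sums of the 8 overlapped between stages, at 1264 to 2909 and 1291 to 1742 CPM. The part of these cells or reads in the stage differences was not tested.

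**Figure D3:**
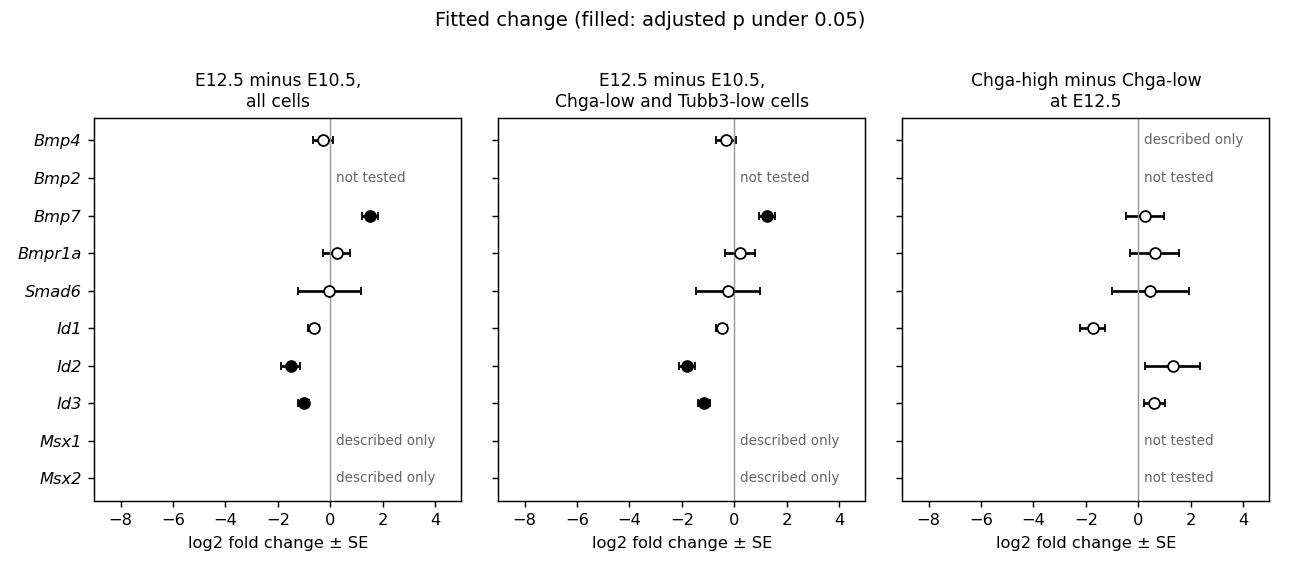
Fitted log2 fold change with its SE (horizontal axis) for each gene in the stage comparisons and between Chga-high and Chga-low cells, with filled points for an adjusted p under 0.05. Genes that passed the filter through 1 group (Msx1 and Msx2 between stages, Bmp4 between Chga classes) are marked as described only and have no point, and the panel on the right holds no filled point.

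Other genes of the pathway came from a list of 55, comprising 12 ligands, 6 receptors, 5 SMADs, 18 antagonists and modulators and 14 further response genes. Between stages in all cells, 33 of the 55 passed the filter, and of the 28 counted 2 were called, both higher. That is 7.14%, against 4.48% over all genes, with a median log2 fold change of 0.06 against 0.001. None of the 2 ligands, 5 receptors and 5 SMADs past the filter was called. Twsg1, which binds BMPs and chordin outside the cell, rose from 10.3 ± 3.85 to 45.7 ± 15.0 CPM (log2 fold change 2.08, SE 0.40, adjusted p = 0.00916). Tbx3, a T-box factor, had 1 of 4 E12.5 plates at the cutoff and is described only, at 32.0 ± 15.3 CPM at E10.5 and 0.262 ± 0.436 CPM at E12.5. Id4 rose from 96.0 ± 46.9 to 237.4 ± 55.9 CPM (log2 fold change 1.28, SE 0.30, adjusted p = 0.0292). Twsg1 was called in each of the 8 fits that left out a plate and Id4 in 2 of them, with an adjusted p of up to 0.0910. Id4 thus went the other way from Id2 and Id3 in all cells, but in Chga-low and Tubb3-low cells alone it was at 54.95 ± 28.8 CPM at E12.5 against 103.7 ± 56.5 CPM at E10.5 (log2 fold change -0.86, SE 0.50, adjusted p = 0.457). In those cells 28 of the 55 were counted and 1 was called (3.57%, against 4.03% over all genes). It was Twsg1 (log2 fold change 2.09, adjusted p = 0.0217), called in 4 of the 8 fits that left out a plate. Tbx3 was at 24.2 ± 16.4 CPM at E10.5 and 0.297 ± 0.496 CPM at E12.5. The median of the 28 was -0.41, against -0.003 over all genes.

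Within E12.5, the Chga-high cells were set against the Chga-low cells of the same plates, by a main fit that does not pair the classes by plate. Bmp4 was nearly absent from the Chga-high cells, and Id4 and Gata3 were far higher there, while Id3, Id2, Bmp7 and Bmpr1a did not pass the test. Of the 10 genes, 7 passed the filter, Bmp4 through the Chga-low cells, and none of the other 6 was called by the main fit of edgeR. At an unadjusted p under 0.05 there was 1 of the 6, against 9.53% of all genes. Of the 7810 genes counted in the same way 3.06% were called, 1.81% higher and 1.25% lower in Chga-high cells, and of all 9839 past the filter 8.28%. With 1 plate left out in turn, 59 to 79 of the 7810 were called, against 239 with all plates. The sums did not overlap between classes for 1 of the 6 (Id1), against 10.7% of the 7810. The median log2 fold change over all genes was -0.178 with TMM scaling and 0.023 with the size factors of RLE, so values near that shift are not read as changes. Over all 9839 past the filter, which keep genes that passed through 1 group, 35.6% of the calls were higher with DESeq2. With edgeR 21.8% of the calls over these 9839 were higher.

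Bmp4 was at 42.0, 45.9, 81.2 and 79.3 CPM in Chga-low cells of plates a, c, d and e. In Chga-high cells of the same plates it was at 0.503, 0, 1.26 and 0.986 CPM. The classes were far apart, with 4 reads in all in 4 of the 42 Chga-high cells, and no molecule. None of the 4 Chga-high sums reached the cutoff of 1.37 CPM, so no test is given. After thinning, 1 of 42 Chga-high cells had a Bmp4 read (2.38%, interval 0.0603 to 12.6%), against 80 of 313 Chga-low cells (25.6%, interval 20.8 to 30.8%). For comparison, Chga itself had a read in 266 of the 313 Chga-low cells without thinning, at 0.107% of its level in Chga-high cells.

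Id1 was at 355.0, 389.8, 260.3 and 314.5 CPM in Chga-low cells of plates a, c, d and e. In Chga-high cells it was at 62.9, 50.3, 174.9 and 139.0 CPM. The classes did not overlap for Id1, with a log2 fold change of -1.74 (SE 0.48, adjusted p = 0.0518), just outside the threshold. Over the alternatives its adjusted p ran from 0.00772 with molecules of the first run and 0.0353 with DESeq2 to 0.171, and it was 0.0714 with the plate as a block. An Id1 read was found in 13 of 42 Chga-high cells (31.0%, interval 17.6 to 47.1%) and 187 of 313 Chga-low cells (59.7%, interval 54.1 to 65.2%). These pooled shares mix plates of unequal depth. On plates a, c, d and e the share was 16.7, 13.3, 55.6 and 66.7% in Chga-high and 50.6, 45.3, 63.2 and 78.3% in Chga-low cells.

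Id3 did not pass the test between these classes. It was at 1261, 763.9, 2821 and 1887 CPM in Chga-high cells and at 1005, 1299, 663.2 and 1100 CPM in Chga-low cells of plates a, c, d and e. The plates overlapped (log2 fold change 0.61, SE 0.41, adjusted p = 0.580). Id2 in Chga-high cells was at 42.3, 26.3, 339.8 and 5.91 CPM, and 538 of the 540 reads on plate d came from a single cell, with 2 molecules on that plate in the first run (log2 fold change 1.31, SE 1.06, adjusted p = 0.683). Without plate d the log2 fold change of Id2 was -0.70.

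Bmp7 was present in both classes. It was at 107.1, 266.6, 16.4 and 309.5 CPM in Chga-high cells and at 146.0, 187.5, 96.5 and 111.7 CPM in Chga-low cells of plates a, c, d and e. The spread among Chga-high sums was wide, with 452 of the 1141 reads in 1 cell (log2 fold change 0.26, SE 0.72, adjusted p = 0.940). The Bmp7 value turned negative with the plate as a block. Bmpr1a was at 8.87 to 139.0 CPM in Chga-high and 12.7 to 65.0 CPM in Chga-low cells, and Smad6 at 0 to 10.1 and 0.0691 to 4.16 CPM (adjusted p = 0.854 and 0.944). Msx1, Msx2 and Bmp2 had 0 reads in the 42 Chga-high cells and were not tested. By the rule of 3 cells over the total this allows a share of up to 7.14% of Chga-high cells with a read, and the exact interval reaches 8.41%.

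Of the 55 further pathway genes, 18 were counted between the classes. Id4 and Gata3 were called, 2 of the 18 (11.1%, against 3.06% over all genes). Id4 was at 1772 ± 662 CPM in Chga-high and 54.95 ± 28.8 CPM in Chga-low cells (log2 fold change 4.82, SE 0.56, adjusted p = 0.00108), and was called without each of the plates in turn and with the plate as a block. Gata3, a zinc finger factor upstream of parathyroid genes, was at 439.1 ± 203.3 and 6.24 ± 5.01 CPM (log2 fold change 5.86, SE 0.80, adjusted p = 0.00313). It was called in 3 of the 4 fits that left out a plate, with an adjusted p of 0.0507 in the other. Nbl1, a secreted BMP antagonist of the DAN family, had no read in Chga-high cells and was at 10.4 ± 3.71 CPM in Chga-low cells, which is given with no test. The median log2 fold change of the 18 was 0.79 and that of the 6 genes above 0.54, against 0.018 over the 7810. Mesenchyme marker reads summed to 32.5 to 101.1 CPM per plate in Chga-high cells, with Prrx1 and Col3a1 at 0, against 0.313 to 13.9 CPM in Chga-low cells. The higher sum was mostly Prrx2 (45.8 against 0.639 CPM) and Pdgfra (17.05 against 2.02 CPM). Col1a1 (0.126 against 1.18 CPM) and Col3a1 (0 against 0.499 CPM) were lower in Chga-high cells. Neuronal marker reads summed lower in Chga-high cells, at 6.35 to 58.5 CPM, with 6 of 8 detected and Neurod1 and Elavl4 at 0. In Chga-low cells they summed to 1468 to 1910 CPM, mostly Stmn2 (909.1 CPM) and Nefm (665.0 CPM). The part of these reads in the class differences was not tested.

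**Figure D4:**
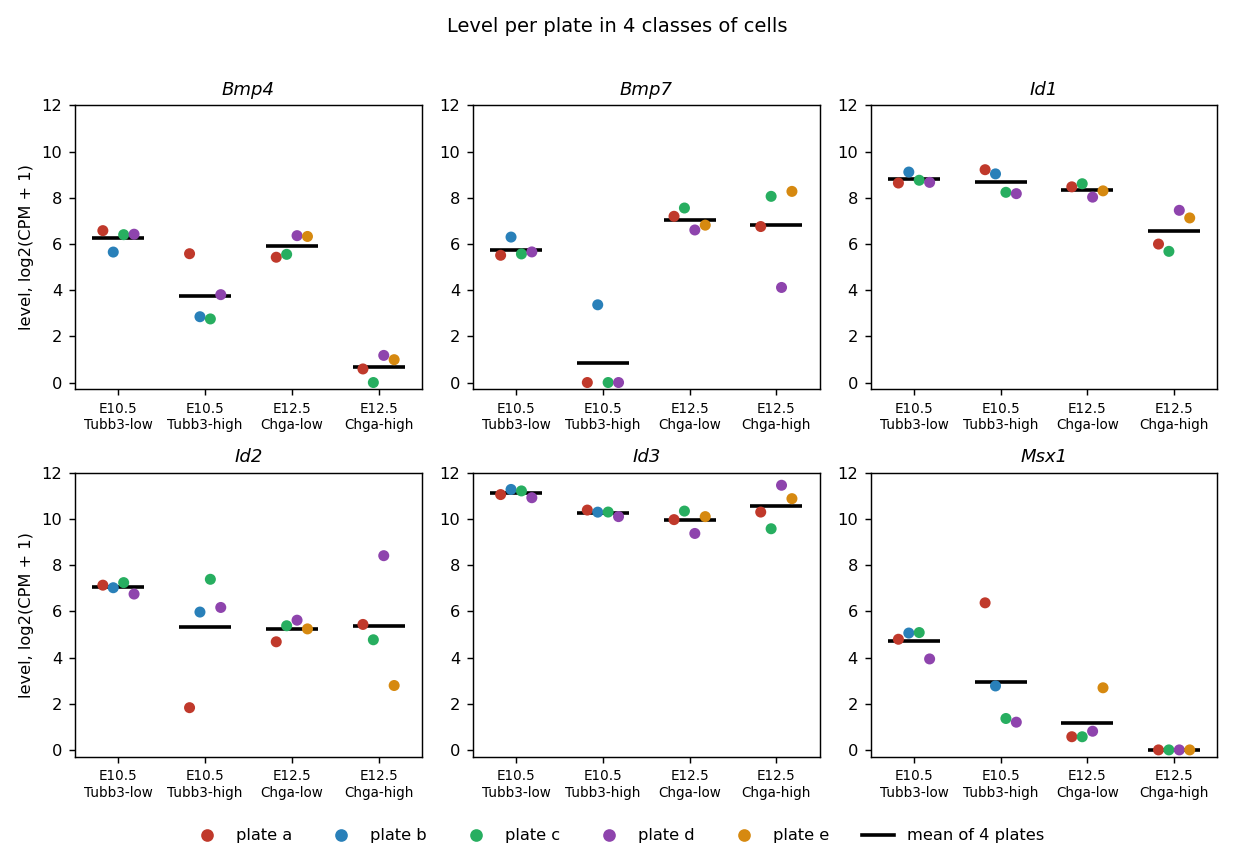
Level of 6 genes per plate as log2(CPM + 1) in Tubb3-low and Tubb3-high cells at E10.5 and in Chga-low and Chga-high cells at E12.5, with a bar at the mean of the 4 log values. Bmp4 lies at or under 1.26 CPM in all 4 Chga-high sums, and Bmp7 is at 0 in 3 of the 4 Tubb3-high sums.

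At E10.5, the Tubb3-high cells were set against the Tubb3-low cells of the same plates, since they carry neuronal markers. The 7 markers other than Tubb3, which chose the cells, summed to 3442 to 8935 CPM against 682.2 to 1191 CPM. None of the 10 genes was called by the main fit of edgeR, which does not pair the classes by plate, with 9 past the filter. That fit called 0.509% of all 9817 genes (50 genes, but 1 without plate b or plate c). Bmp7, Msx2 and Smad6 passed the filter wholly or mostly through Tubb3-low cells. At an unadjusted p under 0.05 there were 2 of the other 6, against 5.32% of the 8630 genes counted in the same way, of which 0.452% were called. The sums did not overlap between classes for 2 of these 6 (Bmp4 and Id3), against 6.71% of the 8630. Among all genes past the filter it was 3 of the 9, with Bmp7, against 934 of 9817. DESeq2 called Id3 (adjusted p = 0.0285). Bmp7 was at 0, 9.32, 0 and 0 CPM in Tubb3-high cells of plates a, b, c and d. In Tubb3-low cells it was at 44.6, 77.8, 46.5 and 49.5 CPM. The classes did not overlap, with 24 reads and, in the first run, 1 molecule of Bmp7 in all Tubb3-high cells, and no test is given. Bmp4 was at 46.8, 6.21, 5.75 and 13.0 CPM in Tubb3-high cells, and 102 of the 110 reads on plate a came from 1 cell. In Tubb3-low cells Bmp4 was at 94.6, 49.2, 83.7 and 84.9 CPM (log2 fold change -2.14, SE 0.74, adjusted p = 0.347). By molecules of the first run, of which Tubb3-high cells held 4, Bmp4 did not pass the filter on low counts.

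Id3 was at 1339, 1258, 1262 and 1100 CPM in Tubb3-high cells of plates a, b, c and d. In Tubb3-low cells Id3 was at 2133, 2488, 2380 and 1941 CPM. All sums of one class lay below those of the other, with a log2 fold change of -0.78 (SE 0.20, adjusted p = 0.124). With the plate as a block, which both classes share, Id3 was called (log2 fold change -0.79, adjusted p = 0.0254), and by molecules of the first run as well (log2 fold change -0.85, adjusted p = 0.0468). Id1 did not separate the classes, at 427.3 ± 155.4 and 447.7 ± 72.3 CPM (adjusted p = 0.9997), and its sign turned with RLE scaling. Id2, Msx1, Msx2, Bmpr1a and Smad6 overlapped between the classes as well. Of the Msx1 reads in Tubb3-high cells, 192 of 213 came from 1 cell of plate a.

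Ligand and response genes were then compared within the E10.5 Tubb3-low cells. Of these 292 cells, 103 had a Bmp4 read after thinning and 189 had none. Msx1 and Msx2 were found more often in cells with Bmp4 on each of the 4 plates, on some through few cells. Id1 and Id3 were found in most cells of either kind. A Msx1 read was present in 24.3% of cells with Bmp4 (25 of 103) and 11.6% without (22 of 189), and a Msx2 read in 23.3% (24 of 103) and 11.6% (22 of 189). By plate, the Msx1 shares with and without Bmp4 were 15.4 and 4.92% on plate a, 21.7 and 18.4% on plate b, 32.3 and 15.0% on plate c, and 22.2 and 10.3% on plate d. Those of plate a came from 2 of 13 and 3 of 61 cells. For Msx2 the counts were 1 of 13 and 3 of 61 on plate a and 8 of 23 and 11 of 49 on plate b. On plate c they were 12 of 31 and 8 of 40, and on plate d 3 of 36 and 0 of 39. An Id1 read was present in 81.6% with and 68.3% without Bmp4, higher on 2 of 4 plates, and an Id3 read in 88.3% and 76.7%, higher on 3 of 4 plates. Pooled shares mix plates of unequal depth, since plate a gave 13 of the 103 Bmp4 cells but 61 of the 189 others.

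Summed by plate, Msx1 was at 56.5, 60.3, 63.8 and 23.2 CPM in cells with Bmp4 on plates a, b, c and d. In cells without Bmp4 it was at 19.7, 20.4, 7.63 and 7.62 CPM. The sums did not overlap, with a log2 fold change of 1.88 by edgeR (SE 0.67, unadjusted p = 0.0164), but the adjusted p over all genes was 0.9998 (0.272 with DESeq2). Besides Bmp4, which chose the cells, 8 of the genes passed the filter, Smad6 mostly through the cells without Bmp4. None of the other 7 was called by edgeR, with or without the plate as a block, or by DESeq2. The sums did not overlap for 1 of the 7 (Msx1), against 2.3% of the 9150 genes counted in the same way. At an unadjusted p under 0.05 in the main fit there was 1, against 128 of these 9150 genes. Of these 0.0109% were called, and of all 9654 past the filter 0.0104%, which is 1 gene, Mt2, a metallothionein named here after its values were seen (log2 fold change 2.60, SE 0.31, adjusted p = 0.0487). It was not called with the plate as a block or without any 1 of the plates a to d. Msx2 had a log2 fold change of 0.27 (SE 1.22) and Id1 one of 0.09 (SE 0.28), both smaller than their SE. The Msx2 value turned negative when cells were chosen by 50 CPM of Bmp4. Id3 was at 2590 ± 246 CPM with Bmp4 and 2008 ± 343 CPM without (log2 fold change 0.37, SE 0.20, adjusted p = 0.9998). A mesenchyme read was found in 51.5% of the cells with Bmp4 and 38.6% of those without, at 30.8 and 18.0% on plate a, 47.8 and 46.9% on plate b, 54.8 and 55.0% on plate c, and 58.3 and 43.6% on plate d, and its part in these values was not tested.

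**Figure D5:**
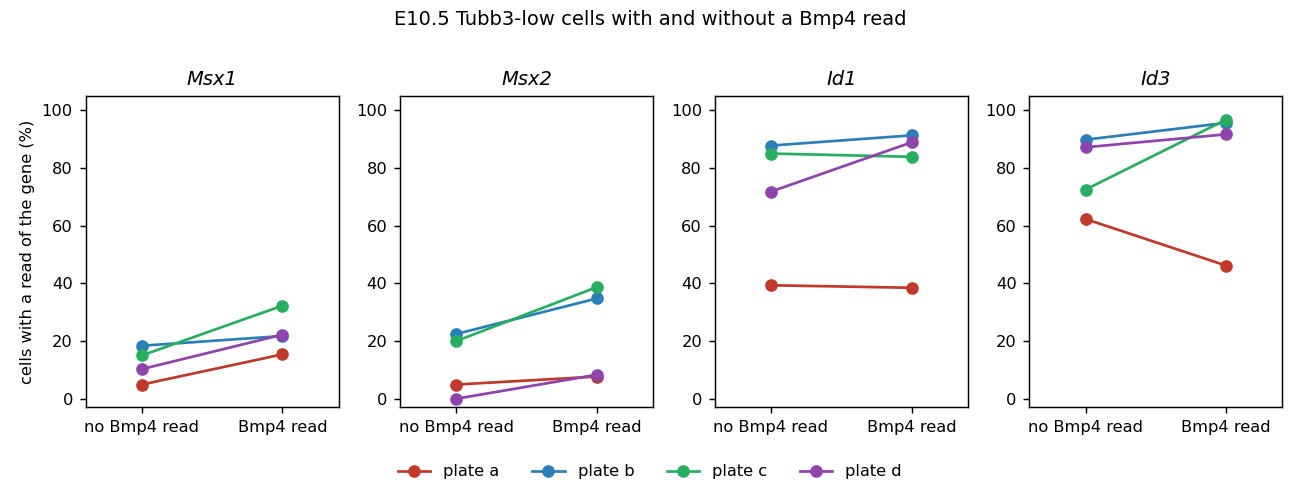
Percentage of E10.5 Tubb3-low cells with a read of Msx1, Msx2, Id1 or Id3 (vertical axis), among cells without and with a Bmp4 read, with 1 line per plate. The lines of Msx1 and Msx2 rise on all 4 plates, on some through few cells, and that of Id3 falls on plate a, from 62.3 to 46.2%.

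Across cells within a plate, Spearman correlations of log2(CPM + 10) between Bmp4 and Msx1 ran from 0.094 to 0.332 over the 4 E10.5 plates, those between Bmp4 and Msx2 from 0.129 to 0.196, and those between Bmp4 and Id1 from -0.032 to 0.192. These are weak values in sparse counts, and cells of a plate share a library. Among the response genes the values differed from pair to pair. Id1 and Id3 had a Spearman correlation of 0.324 to 0.494 over the E10.5 plates, and both were read in 190 of the 292 cells, and the values were also above 0 on all plates for Msx1 and Id3 (0.105 to 0.289) and for Id1 and Id2 (0.041 to 0.284). They were -0.057 to 0.321 for Id2 and Id3, -0.060 to 0.231 for Msx1 and Id1, -0.070 to 0.186 for Id1 and Smad6 and -0.144 to 0.011 for Id3 and Smad6. At E12.5, in Chga-low cells, the Id1 and Id3 values were 0.031 to 0.252. Msx1 and Msx2 were read together in 18 E10.5 Tubb3-low cells, Msx1 alone in 29 and Msx2 alone in 28 (0.160 to 0.425 by plate). In E12.5 Chga-low cells with Bmp4, an Id1 read was present in 66.3% (57.5% without Bmp4) and an Id3 read in 56.3% (66.1% without), and the Bmp4 and Id3 correlation was -0.228 to 0.020 by plate. An Id3 read was present there in 70.0% of cells with and 59.0% without Bmp7, higher on 4 of 4 plates, with Spearman values of 0.007 to 0.168. At E10.5 the same shares were 82.6 and 80.3%, higher on 1 of 4 plates, with values of -0.118 to 0.055. A Msx1 read was present at E10.5 in 26.1% of cells with and 13.0% without Bmp7, higher on 3 of 4 plates.

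The number of Id genes read per cell, after thinning, is given as a description. All 3 of Id1, Id2 and Id3 were read in 37.3% of E10.5 Tubb3-low cells (109 of 292) and in 8.31% of E12.5 Chga-low cells (26 of 313). None of them was read in 8.56% and 16.3% of these cells. In Chga-high cells none was read in 45.2% (19 of 42), and in Tubb3-high cells in 26.6% (17 of 64). Pooled shares mix plates of unequal depth, and plates a and c gave 12 and 15 of the 42 Chga-high cells. On plates a, c, d and e an Id3 read was found in 25.0, 26.7, 77.8 and 83.3% of Chga-high cells. In Chga-low cells of the same plates it was found in 59.5, 58.7, 56.6 and 78.3%. Of the 3 ligands, none was read in 49.7% of E10.5 Tubb3-low and 44.4% of E12.5 Chga-low cells, and 2 were read in 8.90% and 12.46%. Of the Chga-high cells, 69.0% had no ligand read, and of the Tubb3-high cells 82.8%.

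Genes whose level followed each member most closely were sought over 16 sums of plate and class among 5769 genes with a mean of at least 20 CPM, by Pearson correlation of log2(CPM + 10). Sums from one plate share its library, and the values differ between the 4 classes, so these correlations are descriptions. For Bmp4 the closest were Cxcl12 (r = 0.883), Rdh10 (0.879), Gramd3 (0.877), Fermt1 (0.865) and Kif23 (0.858). Cxcl12, a chemokine, was at 129.5 CPM in E10.5 Tubb3-low, 342.5 in E12.5 Chga-low and 4.33 CPM in Chga-high cells. For Id1 the closest were Psma7 (0.927), Cct4 (0.918), Phax (0.906), Telo2 (0.903) and Psma4 (0.900). For Id3 they were Grb7 (0.745), Fgfr1 (0.737), Bex4 (0.726), Ngfrap1 (0.715) and Eva1b (0.680), and for Msx1 they were Hist1h4d (0.866), Gdf11 (0.862), Fam213a (0.851), Gemin6 (0.844) and Trim2 (0.836). Fgfr1, a receptor for fibroblast growth factors, was at 71.3 CPM in E10.5 Tubb3-low, 9.04 in Chga-low and 61.7 CPM in Chga-high cells.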

How the data were processed

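Libraries of single EPCAM+PLET1+ cells were made on BD Precise WTA plates, and the 19 samples are sequencing runs. The authors assigned reads to wells, aligned them with STAR and counted them with HTSeq, in the BD Precise pipeline 2.0. The file headers name GRCm38.p6 and GENCODE vM18 and the labels GRCm38.p5. They deposited raw read counts for all wells, with no normalization, and counts of molecules corrected by RSEC and DBEC, for each run. All 54179 genes of each of the 8 plates in the table equal the sum of 2 runs of that plate, which were taken as 1 library, so the plate was the replicate. Plate b at E12.5, from 1 run and outside the table, was used only as an alternative. Cells were sorted singly and no doublets were called. All plates use the same well positions.

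Cells with 40000 to 400000 reads, 500 to 5000 features and a mitochondrial share up to 50% were kept, 711 of 733 wells. Reads of a plate, or of a class with at least 3 cells on it, were added and fitted with edgeR 4.0.16 (TMM, filterByExpr, robust quasi-likelihood, Benjamini-Hochberg over all genes tested, limma 3.58.1) in R 4.3.3, and with DESeq2 1.42.0 as an alternative. Leaving out of the counts genes that passed the filter through 1 group and using molecules of the first run alone were decided after seeing the data. Bmp4 was taken out before adjustment where it chose the cells. Thinning used seed 1. Scripts were tested on simulated data. Other steps used Python 3.11.15 with pandas 2.3.3, matplotlib 3.10.9, scipy 1.17.1 and numpy 2.4.6. The genes named are the 10 members, pathway genes called (at most 8 per comparison by size) and the 5 closest to Bmp4, Id1, Id3 and Msx1. Members, lists and thresholds were chosen with earlier results of these data known.

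Classes of a plate share its library, so the plate pairs them, but only the fits with the plate as a block used this pairing. The deviations of these sums correlated by 0.030 to 0.066 between the Chga classes, 0.058 to 0.167 between the Tubb3 classes and 0.055 to 0.163 between Bmp4 classes. Letters do not pair the stages.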

Additional observations from a re-analysis of the deposited data

Results flagged for a closer look

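Values of 1 plate that stood far from the other 3 of a group were sought for each gene and class in 55 groups of 4 plates. There were 10, from 6 pairs of gene and plate, since all cells and their classes share reads. Chance flags about 1 in 20 independent groups of this size, a rate that does not apply here, because in 5 of the 10 the other 3 plates were at 0 and a single value above 0 is then always set apart. Bmp2 was read at E10.5 on plate c only, at 7.28 CPM in all cells, 7.58 CPM in Tubb3-low and 5.75 CPM in Tubb3-high cells, with 7 molecules in the first run. Bmp7 on E10.5 plate b was at 77.8 CPM in Tubb3-low cells, against 44.6 to 49.5 CPM on the others, and at 9.32 CPM in Tubb3-high cells, against 0. Id2 on E12.5 plate d was at 339.8 CPM in Chga-high cells, against 5.91 to 42.3 CPM, with 538 of 540 reads in 1 cell. Msx1 on E12.5 plate e was at 5.10 CPM in all cells and 5.46 CPM in Chga-low cells, against at most 0.684 and 0.752 CPM elsewhere, from 1 molecule in the first run. Msx1 on E10.5 plate a was at 81.7 CPM in Tubb3-high cells, all 192 reads in 1 cell. Msx2 on E10.5 plate c was at 6.27 CPM in Tubb3-high cells, from 12 reads in 1 cell, against 0 on the others.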

How the results depend on the processing

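Numbers called depended on the fit, and between classes so did the share of calls that were higher. Between Chga classes this share was 21.8% in the main fit, 57.7% without plate a and 55.3% with molecules of the first run. Between Tubb3 classes it was 80% in the main fit and 45.4% with DESeq2. Between stages in all cells it stayed at 57.05 to 65.7%. DESeq2 called 1269 of 11499 genes between stages in all cells and 1125 of 11146 in Chga-low and Tubb3-low cells. It called 1319 of 9839 between Chga classes (13.4%, 2 of the 10 BMP genes), 401 of 9817 between Tubb3 classes (2) and 12 of 9654 by Bmp4. Molecules added over both runs count most of them in each run. They gave 543 of 3340 genes between Chga classes (16.3%, 2 of the 10) and 99 of 2904 between Tubb3 classes (2). Chosen after seeing the data, molecules of the first run gave 362 of 1569 (23.1%, 1 of the 10) and 70 of 1430 (1). No filter on low counts gave 330 of 14626 between Chga classes (2.26%), against 815 of 9839 (8.28%) in the main fit. Tubb3 at 200 CPM gave 62 of 9759 genes and 1 of the 10, and choosing cells by 50 CPM or by a molecule of Bmp4 gave 0 genes. Leaving out single plates gave 496 to 815 genes (4.2 to 6.82%) and 1 to 4 of the 10 in all cells. In Chga-low and Tubb3-low cells it gave 394 to 668 genes (3.43 to 5.75%) and 3 to 4 of the 10. It gave 104 to 139 genes (1.05 to 1.4%) and 0 of the 10 between Chga classes, 1 to 38 genes between Tubb3 classes, and 0 by Bmp4. These counts keep genes that passed the filter through 1 group, with 5 of the 10 between stages in either set of cells (Msx1 and Msx2 among them) and 1 between Chga classes (Bmp4). Also chosen after seeing the data, leaving such genes out gave 3 and 3 of the 10 between stages and, between Chga classes, 239 genes and 0 of the 10. Leaving out only genes at 0 in a group gave 479 genes there. The causes were not tested.

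With a replicate block, 230 genes and 1 of the 10 were called between stages in all cells and 150 and 0 in Chga-low and Tubb3-low cells. Stage letters are shared names only, since same-lettered plates correlated by 0.059, -0.021 and 0.020. Between classes no plate was left out, and the block gave 290 of 11435 genes (2.54%) and 0 of the 10 between Chga classes. The block gave 37 of 11522 genes and 1 of the 10 between Tubb3 classes, and 0 genes by Bmp4. It turned the log2 fold change of Smad6 between stages to 0.075 and, between Chga classes, of Bmp7 to -0.36, Id2 to -0.058 and Smad6 to -0.72.

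Reversed values were all of genes not past the threshold. Leaving out plates, the log2 fold change between stages ran from -0.0072 to 0.60 for Bmpr1a and -0.66 to 0.42 for Smad6, and in Chga-low and Tubb3-low cells from -0.10 to 0.57 and -0.71 to 0.31. Between Chga classes it ran from -0.73 to 0.86 for Smad6, -0.41 to 1.04 for Bmpr1a, -0.70 to 1.76 for Id2 and -0.26 to 0.49 for Bmp7 (-0.0305 with molecules). Between Tubb3 classes it ran from -3.08 to 0.11 for Msx1, -0.0004 to 0.25 for Bmpr1a and -0.23 to 0.094 for Id1, which was 0.0464 with DESeq2, 0.0461 with RLE and 0.086 at 50 CPM of Tubb3. By Bmp4 it ran from -0.54 to 0.17 for Id2 (0.13 with molecules and 0.22 with those of the first run) and -0.14 to 0.23 for Id1, while at 50 CPM of Bmp4 Bmpr1a was -0.27 and Msx2 -0.32, and with a Bmp4 molecule Bmpr1a was -0.14. Of 20 shares by stage, 6 moved by more than 1 SD between plates without thinning (Bmp4, Bmpr1a, Id2, Msx1 and Smad6 at E12.5, Smad6 at E10.5) and 4 with molecules (Bmpr1a, Id2 and Msx1 at E12.5, Id2 at E10.5).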

Other observations

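Plate b at E12.5, outside the deposited table, held 87 cells after the same limits and 6527627 protein-coding reads. Its levels were 29.3 CPM for Bmp4, 160.2 for Bmp7, 7.97 for Bmp2, 122.1 for Bmpr1a, 2.15 for Smad6, 303.0 for Id1, 46.3 for Id2, 1379 for Id3 and 0.153 for Msx1, with no Msx2 read. Bmp4 and Msx1 lay below all 4 E12.5 plates of the comparisons, Bmp2, Bmpr1a and Id3 lay above them, and Bmp7, Id1, Id2 and Smad6 lay within their ranges. One cell held 419 of the 797 Bmpr1a reads, and all 52 Bmp2 reads came from 1 cell. In the 12 Chga-high cells of plate b, Bmp4 had no read and a Bmp7 read was found in 1 cell after thinning (8.33%). The only Msx1 read of plate b was also in 1 of these 12 cells, with 0 in its 75 Chga-low cells.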
